A study of Mus musculus with 6 samples.

Results

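The genes described here encode the protein components of the cytosolic ribosome, and each was chosen by its gene symbol (an Rps or Rpl symbol, or Rplp0, Rplp1, Rplp2 or Rpsa). A member needed a probe called present (detection p under 0.05) on 3 or more of the 6 arrays, and where a symbol had several such probes, the one with the highest mean stood for it. This gave 63 members among 11562 genes tested, 29 of the small and 34 of the large ribosomal subunit. The rule itself uses the symbols and the detection of the probes, not the difference between KO and WT mice. The samples were Ter119-positive cells from the bone marrow of C57BL/6 mice aged 4 months, with 3 mice carrying a conditional knockout of mDia2 (KO) and 3 wild type mice (WT). Ter119 is a surface antigen of erythroid cells, and mDia2, encoded by Diaph3, is a formin that nucleates actin filaments. Each mouse gave 1 Illumina bead array, and signals are intensities on a linear scale. The sources used here do not name the cell type or promoter in which the conditional allele was deleted.

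A ribosome joins a small subunit, which reads the messenger RNA, to a large subunit, which forms the peptide bond, and each holds its own set of proteins around ribosomal RNA. Erythroblasts translate globin at a high rate before they lose their nucleus and then their ribosomes. In humans, mutations in several ribosomal protein genes, first of all RPS19, cause Diamond-Blackfan anaemia, in which few erythroid precursors form. Many ribosomal protein messages begin with a tract of pyrimidines, the TOP tract, through which their translation is controlled.

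Of the 84 protein-coding symbols that RefSeq (assembly GRCm38.p6) lists under the same rule, 62 were among the members. Another 6 symbols had a probe that was detected on 0 arrays (Rpl14, Rpl17, Rpl39l, Rpl3l, Rpl6 and Rps20), with signals between 83.7 and 99.2. The remaining 16 were not measured by name, among them Rpl5 and Rpl11, which bind the small ribosomal RNA of the large subunit. The detection rule took in Rpsa on 3 arrays, and Rps18 and Rps4y2 on 5 each, while the other 60 members were detected on all 6 arrays. Rps4y2 is an older symbol of Rps4l, a paralog of Rps4x. Ribosomal protein genes have many near-identical processed copies in the genome, and which copies a probe can bind was not analysed here.

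The start of the transcript is shown for 4 members with a pyrimidine run there and for Rpl22, because all 5 are described singly further on. Rpl22 has no run at either annotated start by the rule given next. The run at the front of its stretch begins further before the start than that rule allows and is not marked. Capitals mark an unbroken run of at least 7 pyrimidines that begins within 20 bases of the annotated start, each stretch runs from 40 bases before that start to 20 bases from it on, read along the transcript's strand, and the sequences are from RefSeq, build GRCm38.p6.
Rps6 (chr4:86857348-86857407, minus strand): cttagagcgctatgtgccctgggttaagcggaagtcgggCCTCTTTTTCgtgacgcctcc
Rpl35 (chr2:39005112-39005171, minus strand): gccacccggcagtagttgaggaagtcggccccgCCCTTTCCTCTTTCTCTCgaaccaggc
Rps18 (chr17:33955646-33955705, minus strand): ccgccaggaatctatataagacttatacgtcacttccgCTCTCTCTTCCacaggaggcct
Rpl22l1 (chr3:28805468-28805527, plus strand): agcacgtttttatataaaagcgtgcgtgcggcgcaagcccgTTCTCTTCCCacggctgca
Rpl22 (chr4:152325686-152325745, plus strand): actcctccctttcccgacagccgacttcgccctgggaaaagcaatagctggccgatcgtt

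Promoter windows were available for 49 members, and 29 of these (59.2%) had such a run in at least 1 window, against 28.4% of the 7107 tested genes with a window. The run was found in 12 of 22 small-subunit and 17 of 27 large-subunit members. The motif CCGGAAG, which ETS-family factors bind, was searched on both strands of the whole window, 250 bases before to 50 after the start, and was present in 44.9% of members and 21.9% of tested genes. The TATA motif TATAAA, also searched on both strands, was present in 12.2% of members and 8.68% of tested genes. These matches describe the letters only. The median log2 change between genotypes was -0.07 for members with the pyrimidine run and -0.09 for members without it.

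Late erythroid markers were detected in the samples, and so were markers of other blood cells. Of 12 late erythroid markers 11 were measured. Summed over the late erythroid list, the signal ran from 171322 to 175443 in KO and from 155730 to 168734 in WT mice. The early erythroid sum, over 6 of 6 markers, ran from 11132 to 14393 in KO and from 11401 to 12902 in WT mice, and most of it was Tfrc, the transferrin receptor gene (log2 change 0.15). The other 5 early markers, Kit (-0.72), Cd44 (-0.54), Gata2 (-0.32), Myb (-0.17) and Cd34 (-0.08), had KO values that all lay below the WT values, and none of the 6 passed. Of all genes 23.2% had KO values that all lay below the WT values. With each array centred on its tested probes, 3 of the 6 early markers lay below 0. Gata2, Myb and Cd34 read close to background, and Cd34 was detected on 4 arrays. The sum over the 10 measured of 13 neutrophil markers was 14219 to 25262 in KO against 35533 to 49315 in WT mice. The other sums were 638 to 683 in KO and 928 to 1127 in WT mice for the 5 measured of 9 B lineage markers, 2753 to 6605 and 6651 to 16736 for 9 of 9 monocyte and macrophage markers, 1217 to 1280 and 1517 to 2266 for 6 of 6 megakaryocyte markers, and 359 to 386 and 384 to 504 for 3 of 6 T and NK markers, KO before WT in each. No measured marker was listed at 0. Blood cells other than erythroblasts also carry ribosomes, and the part of these cells in the ribosomal protein signals was not tested. In such bulk samples, fewer cells of a type and less RNA per cell cannot be told apart. The probe of the deleted gene (listed as Diap3) read 574, 341 and 486 in the KO mice, against 1045, 965 and 969 in the WT mice. It was lower in all 3 KO mice, as the labels have it, with a log2 change of -1.12 (SE 0.18, limma adjusted p = 0.0917).

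The question for the ribosomal protein genes was whether their signals differed between KO and WT mice, and whether the subunits differed from each other. No member passed: in limma, after Benjamini-Hochberg adjustment across every probe fitted, 0 of 63 had an adjusted p under 0.05, where 12 of 11562 genes (0.104%) did, and the smallest adjusted p of a member was 0.193. At an unadjusted limma p under 0.05 there were 4 members, all lower in KO mice, which is 6.35% of members, but with centring there were 0 lower and 6 higher, and after quantile normalization 2 lower and 1 higher. The count was 7 without KO replicate 2 (6 lower and 1 higher), 2 without WT replicate 3 and 1 without KO replicate 1 or 3. Of all genes tested 19.9% reached that level in the main fit, 18.6% lower and 1.3% higher. The share of all genes also moved, to 17.5% with centring, 15.2% after quantile normalization and 25.9% without KO replicate 2. It was 12.4% without WT replicate 3, 13.3% without KO replicate 1 and 10.7% without KO replicate 3. The KO and WT values of 8 members (12.7%) did not overlap, all with KO lower, against 23.2% of all genes with KO lower, 2.02% with KO higher and 25.2% in either direction.

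The changes were small and narrow in range. The log2 change ran from -0.29 to 0.13 with a median of -0.08, so the median member had 94.5% of its WT signal in KO mice. Over all genes the median was -0.11, and the members lay 0.02 above it. As measured, 50 of 63 members (79.4%) lay below 0, against 81.2% of all genes, but only 6 did after each array was centred on its tested probes, which moved the members' median to 0.09 and the median of all genes to 0.07. After quantile normalization 43 lay below 0, at a median of -0.04 against 0.01 for all genes, so the position of the members relative to all genes also turned with the scaling. The direction of the family as a whole was therefore not settled by these arrays.

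The intervals give the range of differences that each fit allows. On the values as deposited, for all 63 members the 95% limma interval lay within a factor of 1.5 in either direction, as it did for 85.4% of all genes. For 39 of 63 members (61.9%) it lay within a factor of 1.25, against 40% of all genes. This share went with brightness: it was 37 of 53 members (69.8%) with a mean signal of 500 or more, and 2 of 10 (20%) below that. Of the members 47 were in the top 1% of mean signals, and they were not compared with genes of equal brightness. The lowest bound of any member was a KO signal of 0.686 times that in WT mice, and the highest was 1.33 times. These bounds moved with the scaling and the background correction: with nec, limma's background correction from the detection p-values, 57 of 63 members lay within a factor of 1.5, with bounds from 0.469 (Rps18) to 1.66 times (Rpl22l1), and quantile normalization gave 62 of 63 and a highest bound of 1.52 times (Rpl22l1). The difference exceeded the SD of both groups in 15 members (23.8%), against 43.1% of all genes.

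**Figure D1:**
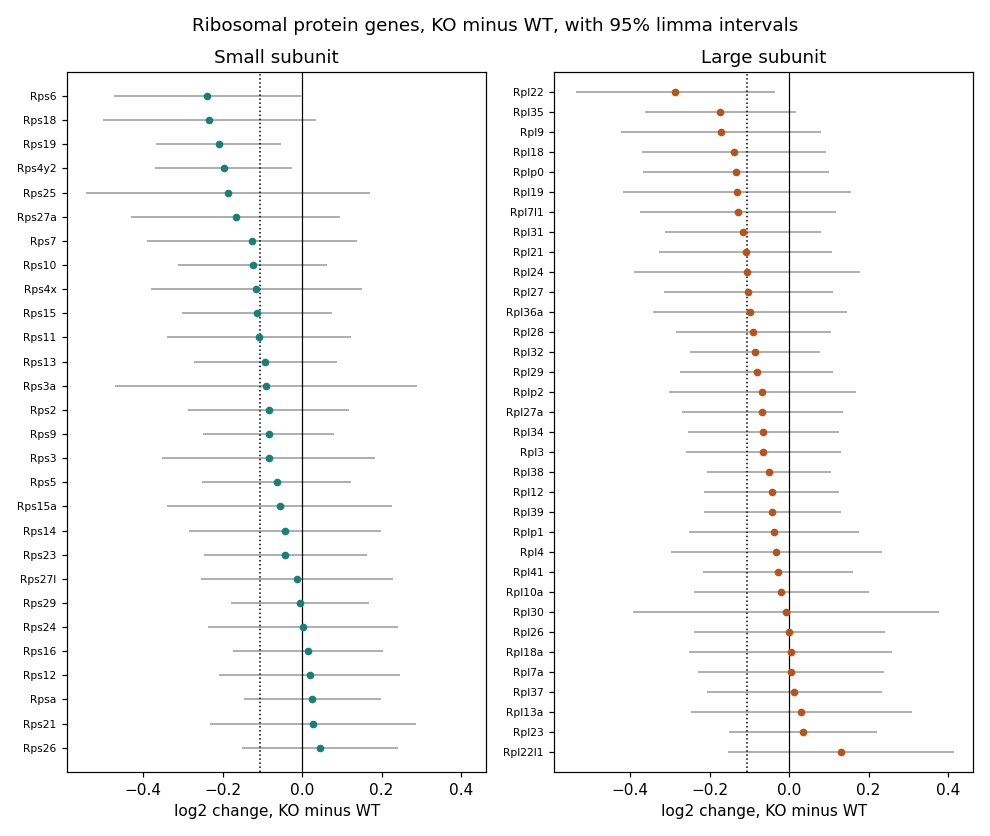
Log2 change (KO minus WT, horizontal axis) of small-subunit and large-subunit members, all but 1, with points for the limma estimate, bars for its 95% interval, a solid line at 0 and a dotted line at the median of all genes tested (-0.11). The points lie between -0.29 and 0.13, and most bars cross 0.

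The medians of the small and the large subunit lay close to each other. Small-subunit members had a median of -0.08 and a range from -0.24 to 0.05, with 23 of 29 below 0. Large-subunit members had a median of -0.07 and a range from -0.29 to 0.13, with 27 of 34 below 0. Without WT replicate 3 the medians were -0.035 for the small and -0.032 for the large subunit, with 38 of all 63 members below 0, and without KO replicate 3 they were -0.054 and -0.038. With centring they were 0.091 and 0.11. The difference of the medians of the fitted changes, small minus large, was -0.0177. A related measure, the small minus large difference of medians within each mouse, had a pooled SD of 0.0247 between mice. An unadjusted limma p under 0.05 was reached by 3 of 29 small-subunit (10.3%) and 1 of 34 large-subunit members (2.94%). Of all genes 19.9% reached that level. The split between subunits in these counts was not tested.

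The subunits also lay close to each other within each mouse. Relative to the WT mean of each gene, the small-subunit median lay at -0.14, -0.01 and -0.11 in the KO mice, against -0.08, -0.0013 and 0.11 in the WT mice (replicates 1, 2 and 3). The large-subunit median lay at -0.08, -0.02 and -0.10 in the KO mice, against -0.10, -0.01 and 0.11 in the WT mice. The genotypes thus overlapped for both subunits, with KO replicate 2 close to WT replicate 2 and WT replicate 1 close to the other KO mice. WT replicate 3 stood above the other 5 mice for both subunits and for all genes (0.09). The small minus large difference lay between -0.06 and 0.0042 in the KO mice and between -0.00052 and 0.01 in the WT mice.

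**Figure D2:**
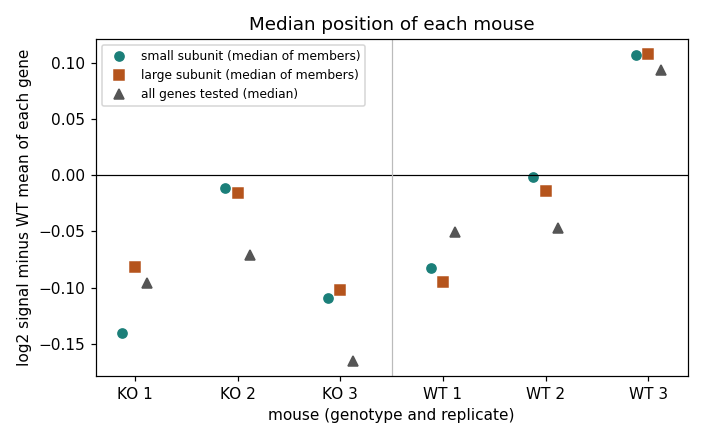
Median log2 signal of small-subunit members, large-subunit members and all genes tested in each mouse (horizontal axis, genotype and replicate), relative to the WT mean of each gene (vertical axis, log2). Both subunits keep close to each other in every mouse, and WT replicate 3 is highest.

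Differences between mice of 1 genotype were of similar size to those between genotypes. Over the members, the median absolute log2 difference between a pair of mice was 0.0664 to 0.155 in the 3 pairs of KO mice and 0.101 to 0.179 in the 3 pairs of WT mice. In the 9 pairs of a KO with a WT mouse it was 0.0904 to 0.224. The highest of the 6 arrays was WT replicate 3 for 42 members and KO replicate 3 for 0, against 59.3% and 2.81% of all genes. The lowest was KO replicate 3 for 25 members and WT replicate 1 for 18, against 42.6% and 9.92% of all genes. Within the KO mice, replicate 2 was highest for 39 of 63 members, against 50.6% of all genes, and within the WT mice replicate 3 was highest for 47, against 71.8%.

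Among the small-subunit genes, Rps19 had the smallest p of all members. Its signal was 12010, 12157 and 11518 in the KO mice, against 13554, 13781 and 13938 in the WT mice. All 3 KO values lay below all WT values, and both groups were tight. The means were 11895 ± 335 in KO and 13758 ± 193 in WT mice (SD, n = 3 each), a KO signal at 86.4% of WT. On the log2 scale this was -0.21, SE 0.07 (limma adjusted p = 0.193, unadjusted p = 0.0157). Over the 21 alternatives with a value for Rps19 it lay between -0.23 and, with centring, -0.04. Rps19 is needed to mature the RNA of the small subunit. A dimmer Rps19 probe had a log2 change of -0.01, and the mean of both probes gave -0.11 (limma adjusted p = 0.360).

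Rps6, the small-subunit protein phosphorylated by S6 kinases downstream of mTOR, read 8248, 9320 and 8203 in the KO mice, against 9390, 9641 and 11437 in the WT mice. The groups did not overlap, but KO replicate 2 lay just under WT replicate 1. On the log2 scale the change was -0.24, SE 0.10 (limma adjusted p = 0.262). It was -0.06 with centring and -0.15 without WT replicate 3. Its transcript start carries the run of 10 pyrimidines shown above.

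Rps4y2 read 91.4, 101 and 98.5 in the KO mice, against 109, 114 and 111 in the WT mice, close to background in both. It was detected in 2 of 3 KO and 3 of 3 WT mice, with a log2 change of -0.20 (SE 0.07, limma adjusted p = 0.226), which was -0.02 with centring, -0.13 after quantile normalization and -0.42 with nec. Rps18, a protein of the head of the small subunit, was also close to background, at 105, 95.6 and 120 in the KO mice, against 128, 111 and 138 in the WT mice. These values overlapped, and the log2 change was -0.23 (SE 0.12, limma adjusted p = 0.316). It was -0.06 with centring, -0.11 after quantile normalization and -0.53 with nec, and leaving out single mice gave -0.32 (without KO replicate 3 or WT replicate 2) to -0.16 (without KO replicate 2).

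Rps27a, made as a fusion to ubiquitin, had 1140 ± 126 in KO and 1280 ± 143 in WT mice (SD, n = 3 each). Its log2 change was -0.17 (SE 0.11, limma adjusted p = 0.439), and its groups overlapped.

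Of the small-subunit members 6 of 29 lay above 0, at 0.05 or less. Rps26, which lines the path where messenger RNA leaves the subunit, had 12767 ± 437 in KO and 12397 ± 1031 in WT mice (SD, n = 3 each), a log2 change of 0.05. The others above 0 with the smallest p were Rps21 (log2 change 0.03), Rpsa, also known as the laminin receptor (0.03), Rps12 (0.02) and Rps16 (0.01). All of these had overlapping groups and limma adjusted p of 0.786 or more. Rpsa read close to background, from 93.3 to 103 over the 6 arrays, and was detected in 2 of 3 KO and 1 of 3 WT mice. Among the bright probes of the small subunit, Rps29 had a log2 change of -0.0064 and Rps12 is given above. Rps2, at the entry of the messenger RNA channel, read 28294, 29618 and 30392 in the KO mice, against 28181, 32566 and 33065 in the WT mice.

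Among the large-subunit genes, Rpl22 had the lowest log2 change of any member on the values as deposited, though Rps6 was lowest after quantile normalization and Rps18 with nec. Rpl22 read 306, 337 and 271 in the KO mice, against 351, 352 and 411 in the WT mice. All KO values lay below all WT values. The means were 305 ± 33.0 in KO and 371 ± 34.6 in WT mice (SD, n = 3 each), a log2 change of -0.29 with a standard error of 0.11 (limma adjusted p = 0.226, and 0.110 to 0.549 over the alternatives). Its log2 change was -0.11 with centring and -0.10 after quantile normalization. In mice Rpl22 protein is known to hold down the message of its paralog Rpl22l1. Rpl22l1 had the highest log2 change of any member, 0.13 with a standard error of 0.12 (limma adjusted p = 0.569). Over 21 alternatives it lay between 0.06 and 0.32, with adjusted p from 0.0675 to 0.867 and an unadjusted p under 0.05 in 5 of them. It was 0.31 with centring, 0.32 after quantile normalization, 0.25 with nec, 0.25 without KO replicate 2, 0.21 without WT replicate 3, 0.08 without KO replicate 3, 0.07 without KO replicate 1 and 0.06 without WT replicate 2. Rpl22l1 read 186, 145 and 184 in the KO mice, against 155, 142 and 173 in the WT mice, and these values overlapped. Whether Rpl22 and Rpl22l1 were linked in these samples was not tested.

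The other paralogs did not pass either, Rps4y2 (given above) among them. Rpl7l1, a paralog of Rpl7, had 466 ± 5.91 in KO and 513 ± 68.5 in WT mice (SD, n = 3 each), a log2 change of -0.13 (SE 0.11, limma adjusted p = 0.523). Rps27l, a paralog of Rps27 and a p53 target in humans, had 5806 ± 419 in KO and 5872 ± 659 in WT mice (SD, n = 3 each), a log2 change of -0.01 (SE 0.10, limma adjusted p = 0.958).

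Rpl35, which sits near the exit of the peptide tunnel, read 14719, 14637 and 13625 in the KO mice, against 14973, 17146 and 16384 in the WT mice. The groups did not overlap, though KO replicate 1 and WT replicate 1 nearly met. The log2 change was -0.17 (SE 0.08, limma adjusted p = 0.295), and 0.0018 with centring. Rpl9, Rpl18 and Rpl31 were the next below 0 by p, with log2 changes of -0.17, -0.14 and -0.12, limma adjusted p from 0.415 to 0.469 and overlapping groups. Rpl21 read 128, 150 and 128 in the KO mice, against 139, 142 and 156 in the WT mice, which overlap.

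No member of the stalk of the large subunit, which recruits the elongation factors, passed. The stalk base protein Rplp0 had 333 ± 27.9 in KO and 365 ± 35.0 in WT mice, Rplp1 30062 ± 2165 and 30860 ± 2476, Rplp2 13750 ± 1635 and 14354 ± 734, and Rpl12 10439 ± 393 and 10762 ± 429 (SD, n = 3 each, KO before WT). Their log2 changes were -0.13, -0.04, -0.07 and -0.04, with limma adjusted p from 0.486 to 0.843. All 4 pairs of groups overlapped.

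Large-subunit members above 0 were Rpl22l1 and 6 others at 0.03 or less. Rpl23, which binds the p53 regulator MDM2 in human cells, had 31915 ± 1370 in KO and 31184 ± 2011 in WT mice (SD, n = 3 each), a log2 change of 0.03. Rpl13a lay at 0.03, Rpl37 at 0.01 and Rpl7a at 0.0048, with limma adjusted p from 0.831 to 0.984 for these and Rpl23. Rpl41, the shortest protein of the ribosome, read 32003, 31881 and 32776 in the KO mice, against 30060, 35133 and 33549 in the WT mice. The KO values all lay inside the WT range.

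**Figure D3:**
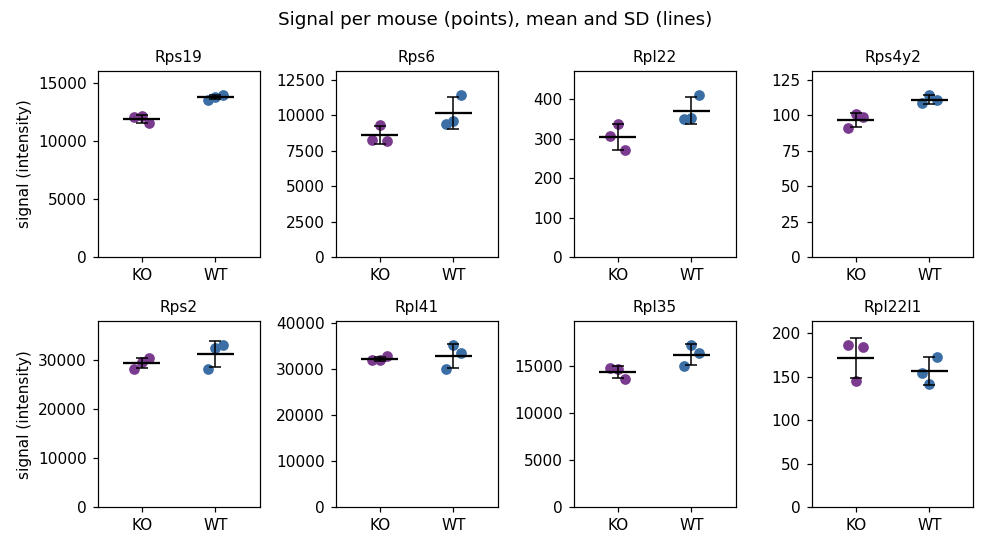
Signal (intensity, linear axis from 0) of 8 members in each mouse, with points for mice, horizontal lines for the group mean and bars for the SD (n = 3 per group). Rps19, Rps6, Rpl22, Rps4y2 and Rpl35 have KO values that all lie below the WT values, while Rps2, Rpl41 and Rpl22l1 overlap.

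Human orthologs of 20 genes were listed as mutated in Diamond-Blackfan anaemia, and 12 of these were members. Their median log2 change was -0.12 (0.05 with centring), with 9 of 12 below 0, 0 passing, and Rps19 alone at an unadjusted limma p under 0.05. That is 8.33% of these 12, against 19.9% of all genes. After Rps19 the smallest p were those of Rpl35 and Rpl9, given above. Both lay below 0, as Rps19 did, and neither passed. Of all genes 81.2% lay below 0, against 75% of these 12. With centring 1 of the 12 lay below 0, against 32.9% of all genes, and Rpl35 was at 0.0018.

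Gnb2l1, now Rack1, a scaffold bound to the small subunit, is named outside the Rps and Rpl symbols. It had a log2 change of -0.10 (limma adjusted p = 0.487), which was 0.07 with centring and 0.08 after quantile normalization. It did not pass, and its groups overlapped.

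Genes that build or serve the ribosome are given here by list, and 0 passed in any of these lists. Of 65 listed ribosome biogenesis genes 52 were measured, with a median of -0.23 and 50 below 0. The median was -0.05 with centring and -0.06 after quantile normalization. An unadjusted limma p under 0.05 was reached by 16 of them (30.8%, against 19.9% of all genes), all lower in KO mice. Nol5a, now Nop56, a core protein of the particles that methylate ribosomal RNA, read 483, 502 and 475 in the KO mice, against 679, 612 and 823 in the WT mice. Its log2 change was -0.52 (SE 0.11, limma adjusted p = 0.162). Mdn1, an ATPase that remodels the large subunit before export, had -0.33, and 2600005C20Rik, now the nucleolar gene Rrp1b, had -0.46.

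The 30 measured initiation factors had a median of -0.15, with 28 below 0, but 0.02 with centring. Those at an unadjusted limma p under 0.05 were 5 lower and 2 higher (23.3%, against 19.9% of all genes). Eif3b, a scaffold subunit of the factor eIF3, had -0.39, Eif1a -0.38 and Eif5a, which helps peptide bond formation, -0.34. The 8 elongation and release factors had a median of -0.20 (-0.02 with centring), with 2 (25%) at an unadjusted limma p under 0.05. Of these the release factor partner Gspt1 and the translocase Eef2 both had -0.37, and Etf1, the release factor itself, had -0.21.

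Of 73 mitochondrial ribosomal protein symbols 67 were measured, with a median of -0.13 and 58 below 0 (81.2% of all genes lay below 0), a median that turned to 0.05 with centring and 0.01 after quantile normalization. An unadjusted limma p under 0.05 was reached by 12 (17.9%), all lower, against 19.9% of all genes and 18.6% lower, led by Mrps10 (-0.37), Mrpl3 (-0.34) and Mrpl44 (-0.39), all structural proteins of that ribosome. Other messages known to carry a TOP tract had a median of -0.13 in 14 measured genes (0.04 with centring). At an unadjusted limma p under 0.05 were 2 (14.3%), Eef2 and the intermediate filament gene Vim (-1.38), with Eif3f next at -0.22. Regulators of such messages had a median of -0.08 in 9 genes (0.09 with centring and 0.03 after quantile normalization) with 0 at that level, the repressor Eif4ebp1 at -0.30, the TOP-binding protein gene Larp1 at -0.16 and 4932417H02Rik, now Rptor, at -0.19. The 7 measured genes that rescue stalled ribosomes had a median of -0.15 (0.03 with centring). Of these 2 (28.6%) reached that level, the GTPase gene Gtpbp1 at -0.29 and Sdccag1, now Nemf, at -0.32. Zfp294, now Ltn1, was next at -0.15. The differences between these lists and the ribosomal proteins were not tested.

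**Figure D4:**
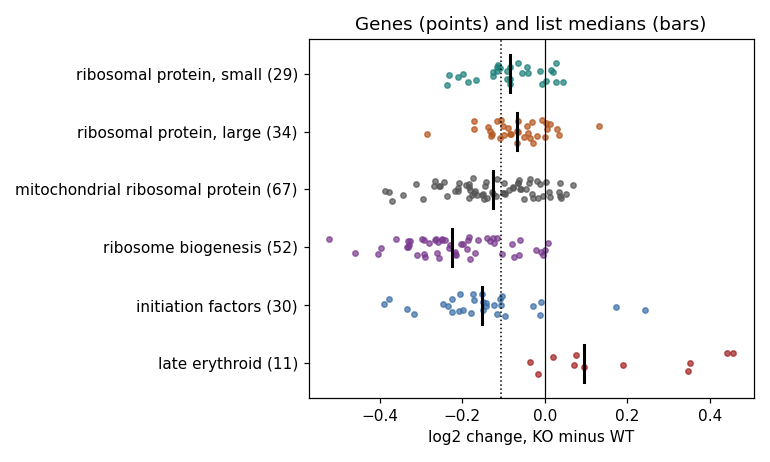
Log2 change (KO minus WT, horizontal axis) of each gene in 6 lists (points, number of genes in brackets), with a bar at each list's median, a solid line at 0 and a dotted line at the median of all genes tested. The ribosomal protein medians lie at -0.08 and -0.07, ribosome biogenesis at -0.23 and late erythroid genes at 0.09.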

How the data were processed

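Ter119-positive marrow cells of 3 KO and 3 WT mice were profiled, and groups follow the genotype label. Per the file headers, the deposited table gives, for 45281 probes, each array's average signal (intensity, linear) and detection p-value. The table's title calls the values normalized; the sources used here name neither the method nor the background correction. The deposited series matrix held the same intensity values. Arrays detected 14815 to 15700 probes in KO and 15315 to 16951 in WT mice, and the number of arrays limits the precision.

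Signals were log2 transformed, and 15743 probes detected (p under 0.05) on at least 3 arrays entered a two-sided limma fit (lmFit, eBayes, version 3.58.1, in R 4.3.3); p-values were adjusted by Benjamini-Hochberg across these probes, and an adjusted p under 0.05 passed. Symbols altered to dates or numbers were left unnamed (54 probes). Changes are KO minus WT on the log2 scale. The code was tested on simulated data. Members and gene lists were chosen with earlier results of these data known. Named members were the 5 smallest p per direction and subunit, the brightest and dimmest, paralogs, stalk and ubiquitin fusions, and members near the detection limit; from other lists, 3 genes by p. Promoter sequences were matched by symbol or synonym to RefSeq. A few named genes are not reported here.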

Additional observations from a re-analysis of the deposited data

How the results depend on the processing

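In all 22 alternatives run, 0 members passed (for nec background correction, dim-probe filters, a pseudocount of 16, variance models, array weights and mice left out alike), and the small minus large difference stayed between -0.04 and 0.02. It was 0.018 without the 47 members in the top 1% of mean signals, which left 16. Centring moved the small-subunit median to 0.091 and the large-subunit median to 0.11, and Rpl35 to 0.0018. The members' median relative to all genes was above 0 in 20 alternatives and below 0 in 2, quantile normalization (-0.05) and no filter on dim probes (-0.04). The 22 are not independent of each other. With centring, an intensity trend, the replicate block, the series matrix values and the 0.1 threshold, this relative median could not move. It was 0.0246 in each, as in the main fit. The small minus large difference could not move in these either, nor with no filter on dim probes, and was -0.0177 in each. The alternatives without paralogs and without the brightest 1% only drop members from the main fit. Paralogs were dropped by the ending of their symbol, so Rps4y2 was kept. Members at an unadjusted limma p under 0.05 were 4 lower and 0 higher in the main fit. There were 0 lower and 6 higher with centring, and 2 lower and 1 higher with quantile normalization. The 4 of the main fit stayed below 0 with centring: Rps19 (-0.04), Rps6 (-0.06), Rpl22 (-0.11) and Rps4y2 (-0.02). The count of members at that level was 2 with nec, with detection on all 6 arrays and without the brightest 1%. It was also 2 with the series of the animals' numbers (900 or 1100) in the model. With WT replicate 3 and KO replicate 2 left out together it was 7. Leaving out single mice gave counts from 1 (without KO replicate 1 or 3) to 7 (without KO replicate 2), and 2 without WT replicate 3. Of the genes tested in each setting, 19.2% reached that level with nec and 19.9% with detection on all 6 arrays. The share was 13.8% with the number series and 24.6% without those 2 mice together. The causes were not tested. The count of 12 passing genes was 34 with centring (11 higher and 23 lower), 46 with nec, 11 with quantile normalization (4 higher and 7 lower), 3 with detection on all 6 arrays, 155 with an intensity trend, 148 with array weights, 6 with the number series, 34 at a threshold of 0.1, 827 without those 2 mice together, and 6 to 152 with each mouse left out. With the replicate number as a block, 1 member was under an unadjusted limma p of 0.05, against 13.0% of all genes, and 3 genes passed. Deviations of equally numbered mice correlated at 0.218, -0.278 and -0.188 across probes, and those of unequally numbered mice at -0.28 to 0.341. These values gave no sign of pairing by number. They cannot decide the question, because the deviations within each group sum to 0.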

Other observations

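Several probes were tested for 18 of the 63 members. Their 24 further, dimmer probes had a median log2 change of -0.08, and 14 had the same sign as the brightest probe of their symbol. Some of the 24 read close to background, such as that of Rps19 (101 to 109). The largest difference between a further probe and the brightest one was 0.31 on the log2 scale, for Rpl23, a symbol chosen after its values were seen: its dimmest probe had -0.27, the next -0.08 and the brightest 0.03. None of the 24 passed in limma, and 1 had an unadjusted p under 0.05, a dimmer Rpl27a probe at -0.23, also chosen after its values were seen.

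The 10 members with a mean signal under 500 had a median log2 change of -0.12, and the 53 brighter ones had -0.07. Of the dimmer members 2 of 10 had an unadjusted limma p under 0.05 (Rpl22 and Rps4y2), and of the brighter ones 2 of 53 (Rps19 and Rps6), against 19.9% of all genes.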
